A study of Homo sapiens with 4 samples.

Results

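The 32 genes described here build cholesterol and fatty acids or regulate that synthesis, and were taken by symbol from a fixed list; all 32 had 1 row each among the 78932 Ensembl genes measured. The cells were RPMI 8226, an established human line from multiple myeloma, a cancer of plasma cells, and they received an LNA ASO, a synthetic antisense strand with locked sugars that binds a chosen RNA. One group carried a CELF2 LNA ASO at 5 nM (2 libraries) and the other a Control LNA ASO at a dose the labels do not give (2 libraries), both for 72 hours. The number on a library may mark a replicate or an oligonucleotide. Separate cultures are not stated, so the p-values reflect library-to-library spread alone, and that spread may be technical. The library method is not settled, since the labels name both poly(A) selection and depletion of ribosomal RNA.

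Cells make cholesterol from acetyl-CoA through mevalonate, squalene and lanosterol, and the same cytosolic acetyl-CoA feeds the synthesis of fatty acids. Both routes are driven by the SREBP transcription factors, which are made as membrane proteins of the endoplasmic reticulum. SCAP escorts them to the Golgi for cleavage when sterols are scarce, and INSIG proteins hold SCAP back when sterols are plentiful. Plasma cells and the myelomas that arise from them carry a large endoplasmic reticulum, whose membranes are built from these lipids.

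Total gene counts were 26061900 and 23599190 in the CELF2 ASO libraries and 29161298 and 24493148 in the control libraries. CELF2, the targeted RNA, had 56.6 and 48.8 CPM (read counts relative to the library total, scaled by the trimmed mean of M-values, TMM) with the CELF2 ASO, against 128 and 127.9 CPM with the control ASO, and was 2.43-fold lower (log2 fold change -1.28 ± 0.09 SE, edgeR adjusted p = 2.88e-05). All 8 plasma cell markers looked for passed the filter on low counts, 2 of them higher and 4 lower, and their sum was 10640 to 10904 CPM with the CELF2 ASO and 3654 to 4197 CPM with the control ASO. Most of that sum was IGLC2, an immunoglobulin light chain gene, with 8505 and 8701 CPM with the CELF2 ASO and 1318 and 1654 CPM with the control ASO. The other 7 markers summed to 2399 and 1939 CPM with the CELF2 ASO and 2336 and 2543 CPM with the control ASO, and among them CD38 rose while SDC1, TNFRSF17, PRDM1 and MZB1 fell. The 5 T and NK cell markers together had 0.712 to 0.721 CPM with the CELF2 ASO and 0.597 to 0.643 CPM with the control ASO, and the 4 adipocyte markers had 0.036 to 0.042 CPM and 0.043 to 0.072 CPM, with ADIPOQ and FABP4 at 0 in all 4 libraries. Of 5 myeloid markers, LYZ and S100A8 were at 0 throughout, none rose, 2 fell, and their sum was 2.42 to 2.68 CPM with the CELF2 ASO and 4.86 to 4.94 CPM with the control ASO. The 5 stromal and epithelial markers held 1 rise and 2 falls, and their sum was 39.4 to 45.2 CPM with the CELF2 ASO and 67.1 to 69.1 CPM with the control ASO. The part of these markers in the results was not tested.

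The synthesis genes were mostly lower with the CELF2 ASO, but not as a block. Of the 32 genes, all of which passed the filter on low counts, 18 fell, 6 rose and 8 were not called (edgeR quasi-likelihood test, adjusted p under 0.05 over 19511 genes). Their median log2 fold change was -0.46, beside 0.04 for all genes tested. Calls were common in this experiment. Of all tested genes 55.5% were called, 27.5% higher and 27.9% lower, and of protein-coding genes at least as abundant as the lowest of the 32 genes, 68.7% were called, 26.5% higher and 42.2% lower. The 32 genes were called in 75% of cases, with 18.8% higher and 56.2% lower. At least 2-fold falls were called for 7 of the 32 genes, beside 11.1% of all genes tested and 12.9% of the protein-coding genes at those levels. No gene of the 32 rose 2-fold, beside 14.5% of all genes tested. Among protein-coding genes tested at any level, 1534 of 12754 were called at least 2-fold higher. In bulk RNA, fewer cells with a transcript and less of it per cell cannot be told apart.

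**Figure D1:**
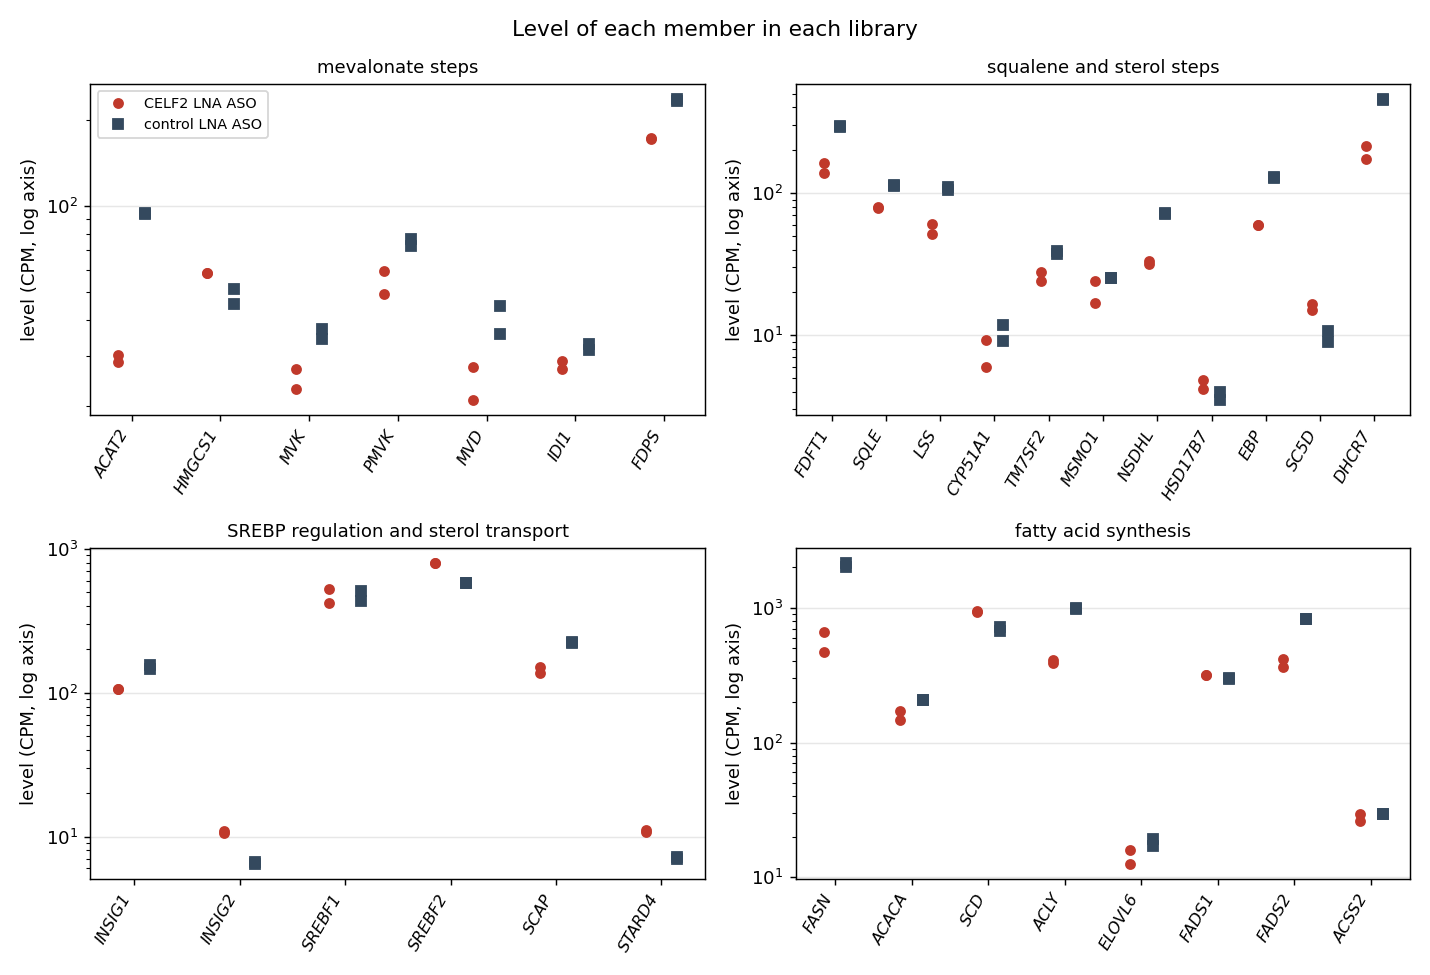
Level of each gene in each library in CPM on a log axis, in 4 panels by role, with circles for CELF2 ASO libraries on the left of each gene and squares for control libraries on its right. FASN, ACLY, DHCR7 and ACAT2 lie lower with the CELF2 ASO, SCD and SREBF2 lie higher, and the groups of SREBF1 and CYP51A1 overlap.

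Of the 7 enzyme genes of the mevalonate route, 5 fell, 1 rose and 1 was not called. Of all genes tested 27.9% were called lower, and of protein-coding genes at the levels of the 32 genes 42.2%. ACAT2 (ENSG00000120437, chromosome 6, 159760328 to 159779055, plus strand), the cytosolic thiolase that joins acetyl-CoA units, fell to 30.3 and 28.6 CPM with the CELF2 ASO, against 94.3 and 93.4 CPM with the control ASO. Its groups lay far apart and it was 3.19-fold lower (log2 fold change -1.67 ± 0.08 SE, edgeR adjusted p = 6.99e-06). ACAT2 shares 397 exon bases with TCP1, a chaperonin subunit gene on the other strand. TCP1 had 211 and 211 CPM with the CELF2 ASO and 584 and 596 CPM with the control ASO. Also on the other strand, ACAT2 shares 1458 bases with SOD2-OT1, which had 18 and 11 counts with the CELF2 ASO and 12 and 9 with the control ASO. It shares 1141 bases there with SOD2, whose ID in GENCODE 29 had no row in the deposited counts. No strand setting is stated, so reads in those stretches cannot be told apart.

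HMGCS1, the HMG-CoA synthase of the next step, moved the other way, with 58.3 and 58.4 CPM with the CELF2 ASO and 51.3 and 45.4 CPM with the control ASO. The groups did not overlap and the rise was 1.21-fold (log2 fold change 0.27 ± 0.09 SE, edgeR adjusted p = 0.0289). Its call was lost without control_LNA_ASO replicate 1 (edgeR adjusted p = 0.0981) or replicate 2 (0.47), with no filter (0.102), with DESeq2 (0.122) and with offsets for GC content and length (0.186). The HMGCS1 to ACAT2 ratio of read counts was 1.93 and 2.04 in the CELF2 ASO libraries and 0.544 and 0.486 in the control libraries.

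Further along, MVD, the mevalonate diphosphate decarboxylase, fell 1.66-fold, with 27.5 and 21.1 CPM with the CELF2 ASO and 35.8 and 44.9 CPM with the control ASO (edgeR adjusted p = 0.00579). The kinases MVK and PMVK fell 1.43-fold and 1.38-fold. MVK shares 306 exon bases with MMAB, a gene on the other strand that fell 1.49-fold (edgeR adjusted p = 0.00407), and reads there cannot be told apart. FDPS, which makes farnesyl diphosphate, fell 1.37-fold to 171 and 172 CPM with the CELF2 ASO, against 233 and 236 CPM with the control ASO (edgeR adjusted p = 0.00114). Its libraries lay close together within each group. IDI1, the isopentenyl diphosphate isomerase, had 28.9 and 27 CPM with the CELF2 ASO and 31.5 and 33.1 CPM with the control ASO. It was not called (edgeR adjusted p = 0.087, or 0.0152 with offsets for GC content and length). Its log2 fold change was -0.21, and -0.25 without CELF2_LNA_ASO replicate 1. Summed over these 7 genes, the level was 402 and 379 CPM with the CELF2 ASO and 553 and 567 CPM with the control ASO.

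In the squalene and sterol steps 7 of 11 genes fell and 1 rose. Those falls stand beside 27.9% of all genes tested and 42.2% of protein-coding genes at the levels of the 32 genes. DHCR7 (ENSG00000172893, chromosome 11, 71428193 to 71452868, minus strand), the reductase that ends one branch of cholesterol synthesis, fell to 214 and 175 CPM with the CELF2 ASO, against 453 and 461 CPM with the control ASO. That was a 2.35-fold fall (log2 fold change -1.23 ± 0.10 SE, edgeR adjusted p = 6.19e-05), and the wider gap lay inside the CELF2 ASO pair. NSDHL, a sterol dehydrogenase of the demethylation steps, fell 2.22-fold to 31.8 and 33.1 CPM with the CELF2 ASO, against 72.5 and 71.6 CPM with the control ASO (edgeR adjusted p = 2.08e-05). EBP, the sterol isomerase, fell 2.16-fold to 59.6 and 59.6 CPM with the CELF2 ASO, against 128 and 129 CPM with the control ASO (edgeR adjusted p = 1.93e-05). For both genes the libraries of a group were almost level with each other.

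FDFT1, the squalene synthase, fell 1.96-fold, with 137 and 162 CPM with the CELF2 ASO and 289.7 and 298 CPM with the control ASO (edgeR adjusted p = 0.000114). LSS, the lanosterol synthase, fell 1.91-fold, with 60.9 and 51.3 CPM with the CELF2 ASO and 105 and 109.8 CPM with the control ASO (edgeR adjusted p = 0.000154). The epoxidase SQLE between them fell 1.43-fold and the sterol reductase TM7SF2 1.47-fold. SC5D, a sterol desaturase acting just before DHCR7, rose 1.62-fold, with 15.1 and 16.6 CPM with the CELF2 ASO and 9 and 10.6 CPM with the control ASO (edgeR adjusted p = 0.00318).

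No call was made for 3 of these 11 genes. CYP51A1, the lanosterol demethylase, had 9.19 and 5.94 CPM with the CELF2 ASO and 9.15 and 11.8 CPM with the control ASO, so that its groups overlapped (edgeR adjusted p = 0.119, or 0.0186 without control_LNA_ASO replicate 1 and 1.79e-07 without CELF2_LNA_ASO replicate 1). An annotated gene on the same strand, AC000120.2, covers 79.4% of the CYP51A1 exon bases and had 0 counts in every library. How reads lying on both genes were counted is not stated. The level of CYP51A1 may therefore leave out reads from that stretch, which was not tested. MSMO1, the sterol methyl oxidase, had 16.7 and 23.9 CPM with the CELF2 ASO and 25.1 and 25.3 CPM with the control ASO. The wider gap lay inside the CELF2 ASO pair (edgeR adjusted p = 0.139, or 0.007 with no filter and 0.018 with offsets for GC content and length). Its log2 fold change was -0.31, and it was -0.61 without CELF2_LNA_ASO replicate 2 and -0.07 without replicate 1. HSD17B7, a ketosteroid reductase, was the least abundant of the 32 genes, with 4.18 and 4.85 CPM with the CELF2 ASO and 3.5 and 4.01 CPM with the control ASO (edgeR adjusted p = 0.236).

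The genes that encode the SREBP system split. SREBF2 (ENSG00000198911, chromosome 22, 41833079 to 41907308, plus strand), the SREBP gene tied most closely to cholesterol synthesis, rose 1.39-fold, with 796 and 800.2 CPM with the CELF2 ASO and 576 and 575 CPM with the control ASO (log2 fold change 0.47 ± 0.07 SE, edgeR adjusted p = 0.000931). The spread within each group was a small part of the gap between them. SREBF1, the SREBP gene tied more to fatty acid synthesis, had 524 and 420 CPM with the CELF2 ASO and 437 and 513 CPM with the control ASO. The groups overlapped and the log2 fold change was -0.01 ± 0.12 SE (edgeR adjusted p = 0.955), with a sign that flipped under 6 of 13 alternative settings. It was -0.17 without CELF2_LNA_ASO replicate 1 and 0.24 with offsets for GC content and length, so these settings moved it in opposite directions. SREBF1 shares 556 exon bases with RAI1, a gene on the other strand that fell 1.51-fold (edgeR adjusted p = 0.00167), and reads there cannot be told apart.

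SCAP, the escort protein, fell 1.55-fold, with 149.96 and 137 CPM with the CELF2 ASO and 221 and 224 CPM with the control ASO (edgeR adjusted p = 0.000362). INSIG1, a retention factor that is itself an SREBP target, fell 1.42-fold to 106 and 106 CPM with the CELF2 ASO, against 146 and 156 CPM with the control ASO (edgeR adjusted p = 0.000854). Its relative INSIG2 rose 1.64-fold, with 11 and 10.5 CPM with the CELF2 ASO and 6.68 and 6.43 CPM with the control ASO (edgeR adjusted p = 0.0026). There were 9.71 and 10.1 INSIG1 reads per INSIG2 read in the CELF2 ASO libraries and 21.9 and 24.3 in the control libraries. STARD4, a sterol carrier protein, rose 1.55-fold, with 11.1 and 10.8 CPM with the CELF2 ASO and 6.93 and 7.2 CPM with the control ASO (edgeR adjusted p = 0.00418, or 0.0536 without control_LNA_ASO replicate 1).

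RefSeq promoter windows were found for 28 of the 32 genes, 39 windows in all since some genes have several start sites, and the 250 bases before each start on the GRCh38.p14 build were searched on both strands. Each share is set beside that of 22199 windows of protein-coding genes. TCACNCCAC, a spelling of the sterol regulatory element that SREBPs bind, was found in 1 of the 39 windows and in 0.883% of all windows. Its core CACNCCA, which lies inside it, was found in 30.8% and 14.8%. Both searches used exact letters, so an element spelled otherwise was not counted. CCAAT, the box bound by NF-Y, was found in 61.5% of the 39 windows and 32.7% of all windows. The GC box GGGCGG was found in 89.7% and 53.7%, and the E-box CACGTG in 10.3% and 7.37%. No window was matched for ACAT2, FASN, FDFT1 and SQLE, all of which fell, so these shares do not cover them. The 1 window with TCACNCCAC was that of SREBF2. It is printed with SCD, another gene that rose, and with MVK and NSDHL, which fell and had 5 CCAAT matches each. That was the most among the 28 genes searched, counted in 1 window per gene. Capitals mark TCACNCCAC and CCAAT on either strand. All 4 genes lie on the plus strand, and the windows are chr22:41832855-41833104 for SREBF2, chr10:100346983-100347232 for SCD, chr12:109573544-109573793 for MVK and chrX:152830813-152831062 for NSDHL.
SREBF2: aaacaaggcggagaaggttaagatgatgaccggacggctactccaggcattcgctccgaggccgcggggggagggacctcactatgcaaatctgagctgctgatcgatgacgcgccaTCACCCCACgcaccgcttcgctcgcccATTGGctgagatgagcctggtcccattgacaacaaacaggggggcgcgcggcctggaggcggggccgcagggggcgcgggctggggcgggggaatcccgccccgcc
SCD: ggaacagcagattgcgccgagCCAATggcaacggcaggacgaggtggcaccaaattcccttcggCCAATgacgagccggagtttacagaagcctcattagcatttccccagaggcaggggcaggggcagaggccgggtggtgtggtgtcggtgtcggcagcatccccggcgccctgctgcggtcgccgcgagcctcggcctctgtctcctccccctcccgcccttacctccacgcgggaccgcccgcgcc
MVK: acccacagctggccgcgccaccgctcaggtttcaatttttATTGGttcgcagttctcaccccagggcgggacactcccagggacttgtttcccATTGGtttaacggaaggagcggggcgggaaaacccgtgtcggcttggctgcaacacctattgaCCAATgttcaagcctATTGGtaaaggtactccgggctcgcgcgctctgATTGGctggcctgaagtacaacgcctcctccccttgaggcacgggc
NSDHL: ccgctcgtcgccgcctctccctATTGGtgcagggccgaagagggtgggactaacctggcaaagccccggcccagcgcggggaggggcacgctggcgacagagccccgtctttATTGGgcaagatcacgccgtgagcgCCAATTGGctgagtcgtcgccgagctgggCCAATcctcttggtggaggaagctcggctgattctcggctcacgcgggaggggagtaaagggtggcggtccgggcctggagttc
In the SREBF2 window the element covers bases -133 to -125 from the start and a CCAAT box, as ATTGG, covers bases -106 to -102. SCD has CCAAT at -229 to -225 and at -186 to -182. These matches describe the letters of the windows and are not evidence of binding.

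Fatty acid synthesis held both the deepest fall and a rise. FASN (ENSG00000169710, chromosome 17, 82078333 to 82098332, minus strand), the synthase that builds palmitate, fell to 660.1 and 473 CPM with the CELF2 ASO, against 2007 and 2163 CPM with the control ASO. It was 3.68-fold lower (log2 fold change -1.88 ± 0.16 SE, edgeR adjusted p = 9.38e-05). ACLY, which makes cytosolic acetyl-CoA from citrate, fell 2.48-fold to 413 and 387 CPM with the CELF2 ASO, against 989.6 and 991 CPM with the control ASO (edgeR adjusted p = 1.33e-05). FADS2, a fatty acid desaturase, fell 2.1-fold to 419.8 and 366 CPM with the CELF2 ASO, against 828 and 826 CPM with the control ASO (edgeR adjusted p = 5.17e-05). For all 3 the relative gap between the CELF2 ASO libraries was wider than that between the control libraries.

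ACACA, the carboxylase that makes malonyl-CoA, fell 1.3-fold, with 173 and 148 CPM with the CELF2 ASO and 207 and 208 CPM with the control ASO (edgeR adjusted p = 0.00946). That call was lost with library totals alone (edgeR adjusted p = 0.0759). SCD (ENSG00000099194, chromosome 10, 100347124 to 100364834, plus strand), the desaturase that makes oleate, rose 1.35-fold, with 936 and 949 CPM with the CELF2 ASO and 669 and 723 CPM with the control ASO (log2 fold change 0.44 ± 0.08 SE, edgeR adjusted p = 0.00203). Without control_LNA_ASO replicate 1 the SCD call was lost (edgeR adjusted p = 0.107), and with HMGCS1 and STARD4 also lost there, 3 rises in place of 6 were called among the 32 genes.

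FADS1, the desaturase that follows FADS2, was not called, with 316 and 316 CPM with the CELF2 ASO and 297 and 299 CPM with the control ASO (log2 fold change 0.08 ± 0.07 SE, edgeR adjusted p = 0.334). FADS1 and FADS2 are neighbours on chromosome 11 whose annotations share 490 exon bases on opposite strands, 4.79% of FADS1 and 4.44% of FADS2. The acetyl-CoA synthetase gene ACSS2, which uses acetate where ACLY uses citrate, had 29.5 and 26.3 CPM with the CELF2 ASO and 29.7 and 29.6 CPM with the control ASO (edgeR adjusted p = 0.472). ELOVL6, an elongase of palmitate, had 16 and 12.5 CPM with the CELF2 ASO and 19 and 17 CPM with the control ASO (edgeR adjusted p = 0.0822, or 1.75e-05 without CELF2_LNA_ASO replicate 1 and 0.0469 with the replicate number as a block). For FADS1, ACSS2 and ELOVL6 the groups did not overlap, which held for 30 of the 32 genes, 8 higher and 22 lower, and for 79.6% of all genes tested, 41.2% higher and 38.4% lower.

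**Figure D2:**
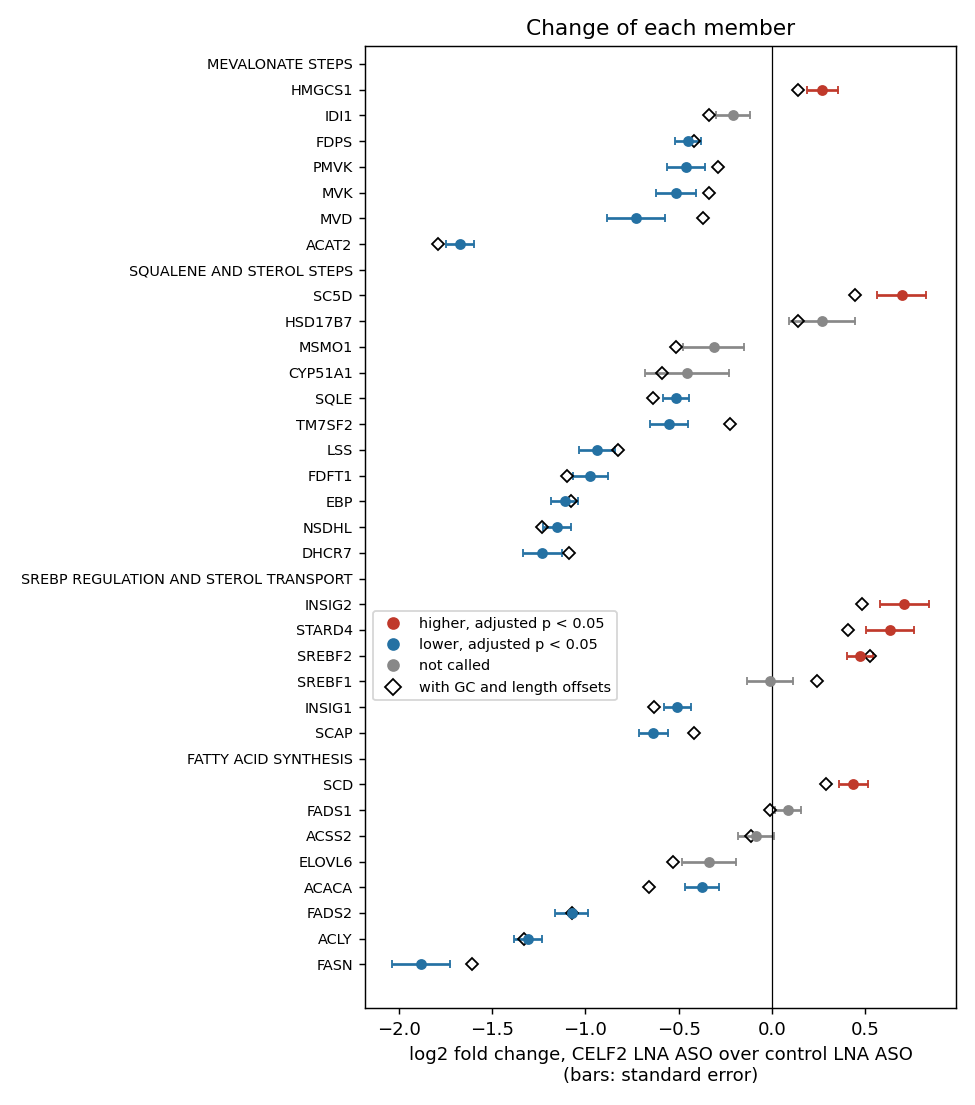
Log2 fold change of each gene, CELF2 ASO over control ASO, by role, with standard errors as bars, colour for calls at an adjusted p under 0.05, and diamonds for the value with offsets for GC content and length. Falls reach -1.88 for FASN and rises reach 0.71 for INSIG2, and the SREBP regulation genes lie on both sides of 0.

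Within a library, the ratio of 2 read counts does not depend on scaling, and 7 such ratios between related genes were computed after the changes were seen. The SCD to FASN ratio was 1.42 and 2.01 in the CELF2 ASO libraries and 0.333 and 0.334 in the control libraries. FADS2 to FADS1 was 1.33 and 1.16 in the CELF2 ASO libraries and 2.79 and 2.76 in the control libraries. SREBF2 to SREBF1 was 1.52 and 1.91 in the CELF2 ASO libraries and 1.32 and 1.12 in the control libraries. No ratio overlapped between the groups, and none was tested, since an exact permutation test of 2 libraries against 2 cannot go below a two-sided p of 0.333.

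**Figure D3:**
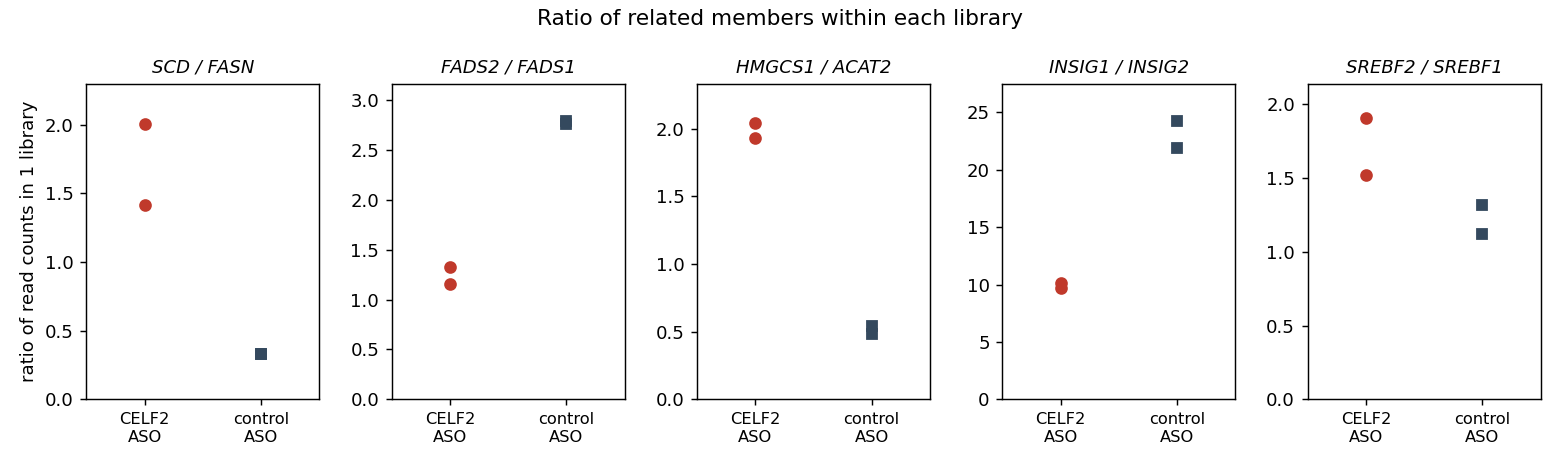
Ratio of read counts between related genes within each library, on linear axes from 0, with CELF2 ASO libraries as circles on the left and control libraries as squares on the right of each panel. The SCD to FASN and HMGCS1 to ACAT2 ratios are higher with the CELF2 ASO, while FADS2 to FADS1 and INSIG1 to INSIG2 are lower.

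Per kilobase of annotated exon, the order of levels changed at the top. With the CELF2 ASO the highest mean level among the 32 genes was that of SCD at 176 CPM per kb, followed by SREBF2 at 106, ACLY at 76.7 and FASN at 60.5 CPM per kb. With the control ASO the highest was FASN at 223 CPM per kb, followed by ACLY at 189.9, SCD at 129.8 and DHCR7 at 109.8 CPM per kb. These levels use the union of annotated exons as length. Fatty acid synthesis genes together had 2962 and 2677 CPM with the CELF2 ASO and 5046 and 5258 CPM with the control ASO, and the squalene and sterol genes 657 and 635 CPM against 1245 and 1273 CPM. The 6 SREBP regulation and sterol transport genes together had 1599 and 1484 CPM with the CELF2 ASO and 1394 and 1482 CPM with the control ASO.

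The GC content of the transcripts moved with these values. The median was 39.9% for the 6 genes that rose and 56.1% for the 18 that fell, beside 47.1% and 52.7% for all tested genes that rose and fell. Across the 32 genes, which share the same 4 libraries, GC content and log2 fold change had a Pearson r of -0.505 and a Spearman rho of -0.546, and across 17699 tested genes with a GC value these were -0.168 and -0.189. GC content also ran with the gap between the CELF2 ASO libraries, with r = 0.463 for the 32 genes and 0.218 for all genes. FASN, MVD and SREBF1, the most GC-rich of the 32, were 0.48, 0.39 and 0.32 higher on the log2 scale in CELF2_LNA_ASO replicate 1 than in replicate 2. With offsets for GC content and length in the model, 21 genes fell and 6 rose, and the median was -0.42. All genes tested moved too, with more called lower, fewer called higher and a median of -0.07. On the same 17699 genes without offsets these medians were -0.43 for the 32 genes and 0.04 for all genes. The 32 genes therefore lay nearer to all genes with offsets than without. In the fit with offsets HMGCS1 lost its call, SREBF1 had a log2 fold change of 0.24 and was called higher (edgeR adjusted p = 0.0466), and FASN was at -1.61 (edgeR adjusted p = 1.21e-05). SREBF1 went the other way, to -0.17, without CELF2_LNA_ASO replicate 1.

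**Figure D4:**
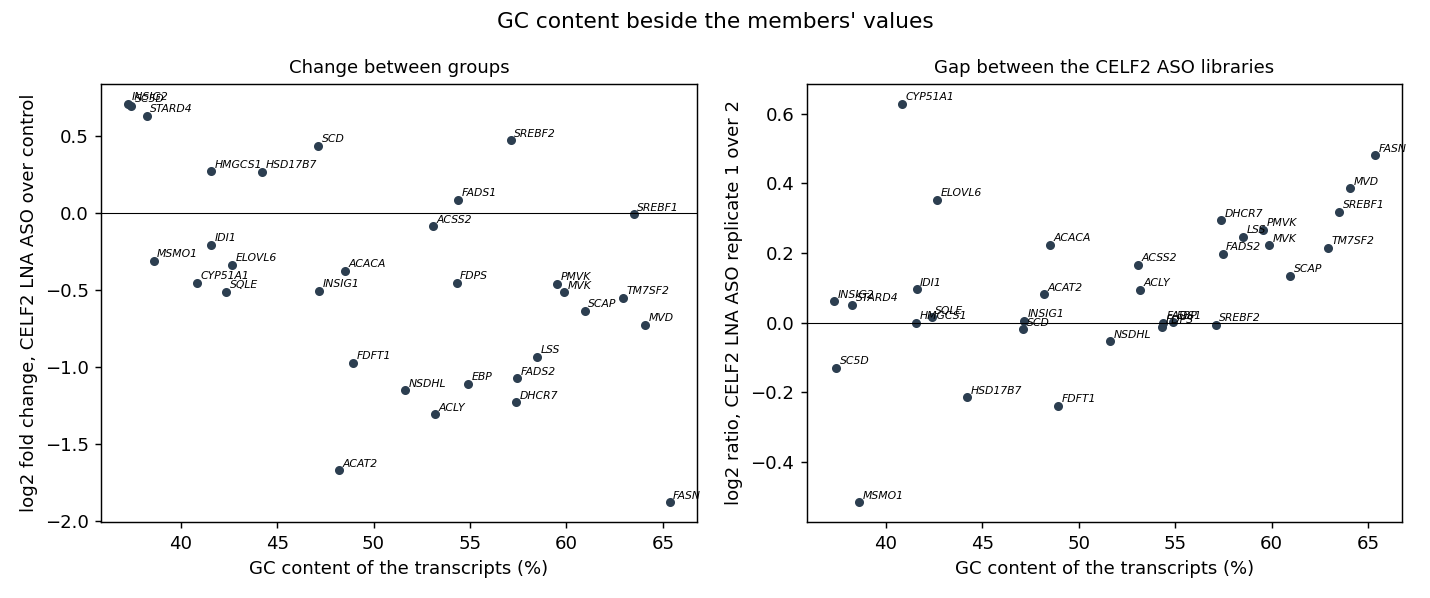
GC content of each gene's transcripts against its log2 fold change between the groups (left) and its log2 ratio between the CELF2 ASO libraries (right), for the 32 genes. INSIG2, SC5D and STARD4 rose at under 39% GC, and FASN, at 65.3% GC, had the lowest fold change.

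Genes around the pathway moved in both directions, as did genes at large. Of all genes tested 55.5% were called, 27.5% higher and 27.9% lower, and the counts below are to be read beside those shares. The shares belong to the fit with all libraries and no offsets, and they changed under other settings. Among 9 genes of SREBP cleavage and INSIG turnover, 3 rose and 1 fell (44.4% called), with a median of 0.09. MBTPS2, the intramembrane protease that releases SREBPs, rose 1.7-fold (edgeR adjusted p = 0.000288), the membrane scaffold gene ERLIN2 rose 1.43-fold (0.00189), and UBE2G2, a ubiquitin-conjugating enzyme of the endoplasmic reticulum, fell 1.57-fold (0.000292). Without CELF2_LNA_ASO replicate 2, 3 of the 9 genes were called lower, and with GC and length offsets 4 were called lower and 2 higher. Among 11 users of isoprenoids 2 rose and 4 fell (median -0.21), and the share called, 54.5%, was near that of all genes tested. PDSS1, which builds the tail of coenzyme Q, fell 4.81-fold, with 7.32 and 5.57 CPM with the CELF2 ASO and 32.2 and 30 CPM with the control ASO (edgeR adjusted p = 1.99e-05). COQ2 of the same route fell 1.51-fold, while GGPS1, the geranylgeranyl diphosphate synthase, rose 2.09-fold and the farnesyltransferase subunit gene FNTA 1.31-fold. The FNTA call was lost without control_LNA_ASO replicate 1 (edgeR adjusted p = 0.234) or replicate 2 (0.154), and without either of them 1 of the 11 genes was called higher and 2 were called lower. With GC and length offsets 1 was called higher and 6 lower.

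Of 10 genes of sterol storage, export and lysosomal release, 7 rose and 2 fell (median 0.36). That is 90% called, beside 55.5% of all genes tested. ABCA1, a cholesterol efflux pump, rose 3.61-fold, with 5.34 and 5.61 CPM with the CELF2 ASO and 1.68 and 1.32 CPM with the control ASO (edgeR adjusted p = 0.000189). NPC2, which hands cholesterol out of lysosomes, rose 2.83-fold, with 118 and 128 CPM with the CELF2 ASO and 42 and 44.9 CPM with the control ASO (edgeR adjusted p = 1.13e-05). The genes of the LXR receptors, which sense oxysterols, fell, NR1H3 1.84-fold and NR1H2 1.25-fold. Without control_LNA_ASO replicate 1, 4 of the 10 genes were called higher. Without control_LNA_ASO replicate 2 the NR1H2 call was lost (edgeR adjusted p = 0.149), which left 1 gene lower, and with GC and length offsets NR1H2 was at 0.00 on the log2 scale.

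Of the 18 other genes of acyl chain elongation, desaturation and activation, 13 were tested, of which 9 fell and 1 rose (median -0.57). That is 76.9% called, beside 55.5% of all genes tested. The acyl-CoA synthetase gene ACSL5 fell 2.35-fold and the elongase gene ELOVL1 2.21-fold, and ACSL3 rose 1.59-fold. A second gene was called higher without control_LNA_ASO replicate 2 or without either CELF2 ASO library, 2 in place of 1. All 9 genes of acetyl and malonyl unit supply were called, 7 lower and 2 higher (median -0.48). Of protein-coding genes at the levels of the 32 genes, 68.7% were called. SLC25A1, the carrier that exports citrate from mitochondria, fell 2.6-fold, with 11.6 and 13.6 CPM with the CELF2 ASO and 33.3 and 32.4 CPM with the control ASO (edgeR adjusted p = 5.2e-05). PDHB, a pyruvate dehydrogenase subunit gene, fell 2.1-fold. MLYCD, the malonyl-CoA decarboxylase, rose 3.32-fold (edgeR adjusted p = 0.000801) and ACACB, the carboxylase at mitochondria, 1.48-fold. The ACACB call was lost without control_LNA_ASO replicate 1 (edgeR adjusted p = 0.0682) or replicate 2 (0.0639).

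Fatty acid oxidation, the reverse process, had 15 of 17 genes tested, of which 5 fell and 2 rose (median -0.17). The share called was 46.7%, beside 55.5% of all genes tested. HADH and ETFB fell 2.19-fold and 1.87-fold, and CPT2 and ACADM rose 1.33-fold and 1.29-fold. Neither rise was called without control_LNA_ASO replicate 1 or replicate 2. Without CELF2_LNA_ASO replicate 2, 4 of the 15 genes were called higher, and without CELF2_LNA_ASO replicate 1, 10 were called lower. With GC and length offsets 1 was called higher and 6 lower. Of 22 genes of glycerolipid and phospholipid synthesis 10 fell and 7 rose (77.3% called, median -0.17). With GC and length offsets 10 of these 22 were called lower and 4 higher. PTDSS1, a phosphatidylserine synthase, fell 3.28-fold to 176 and 139 CPM with the CELF2 ASO, against 526 and 509 CPM with the control ASO (edgeR adjusted p = 2.25e-05), and AGPAT2 fell 2.69-fold. LPIN2, a phosphatidate phosphatase, rose 2.82-fold and CDS2 1.72-fold. Differences between these lists and the 32 genes were not tested.

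**Figure D5:**
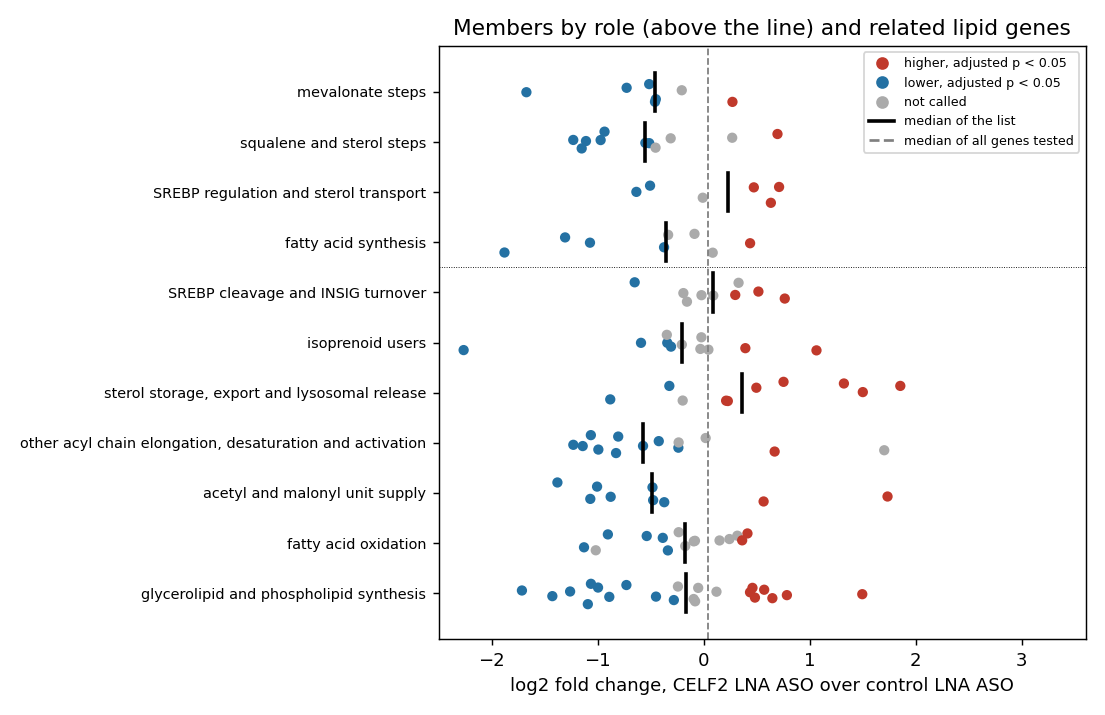
Log2 fold change, CELF2 ASO over control ASO, of each tested gene by list, with the 32 genes split by role above the dotted line, black bars for list medians and a dashed line for the median of all genes tested (0.04). Medians run from -0.57 for other acyl chain genes to 0.36 for sterol storage and export.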

How the data were processed

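The authors deposited whole-number read counts per Ensembl gene, with no normalization that the values show. The submitters' processing notes name the GRCh38 build, STAR 2.7.11b, featureCounts 2.0.8 from Subread, Salmon 1.10.0 and bcl2fastq. Annotation release, strand setting and multi-mapped reads: not given in the sources used here. Of 79029 rows, 97 spike-in or reporter rows holding 1 to 3 counts per library were left out. Symbols came from a name table (61481 IDs matched), positions, exon lengths and transcript GC content from GENCODE 29 on GRCh38, and promoter windows from RefSeq (GRCh38.p14).

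Counts were tested in R 4.3.3 with edgeR 4.0.16 (filterByExpr at its minimum count of 10 and total of 15, TMM scaling, robust quasi-likelihood fit, two-sided test, no covariate), with Benjamini-Hochberg adjustment over 19511 genes at 0.05. Standard errors are the absolute log2 fold change over the square root of F. The method was run on simulated counts in which few genes changed and all genes had the same dispersion. That setting differs from these data, so it does not show how the method performs on them. Alternatives used limma 3.58.1, DESeq2 1.42.0 and other settings. Libraries of a pair differed beyond sampling noise (chi-square per degree of freedom 22.5 for the CELF2 ASO pair and 3.73 for the control pair). The 32 genes and the companion and marker lists were chosen with earlier results of these data known. All 32 genes could be named, and of each companion list the 2 largest called changes in each direction. Ratios, TCP1, MMAB and RAI1 were chosen after their values were seen.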

Additional observations from a re-analysis of the deposited data

How the results depend on the processing

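With 2 libraries per group the p-values rest on few degrees of freedom, and a fit without 1 library takes its spread from the other pair alone. Of the 24 called genes, 20 kept their call and direction under all 13 alternatives, 4 lost the call under at least 1 (HMGCS1, STARD4, ACACA and SCD), and 6 of the 8 genes not called gained one. The number of genes called lower ran from 17 to 22 and the number called higher from 3 to 7. Calls over all genes tested changed between settings as well, so these ranges do not describe the 32 genes alone. Leaving out 1 library gave 3 to 6 genes higher (3 without control_LNA_ASO replicate 1), 18 to 22 lower and a median from -0.54 to -0.45, against 6 and -0.46 with all libraries. The median was -0.34 with library totals alone, a scaling that moved the median of all genes by 0.12. With offsets for GC content and length that median moved by -0.11, and with the replicate number as a block 6 genes rose, 19 fell and the median was -0.47. The SREBF1 log2 fold change was 0.11 with library totals alone, 0.043 with the 1 CPM filter, 0.24 with GC and length offsets, 0.0203 on the same genes without offsets (a setting added after seeing the data), and -0.17 to 0.12 without 1 library. FADS1 was at -0.0129 with GC and length offsets and ACSS2 at 0.03 with library totals alone. Of the 26 companion genes named, 21 kept call and direction under all alternatives; NR1H2 was at 0.0031 with GC and length offsets. The cause was not tested. Deviations of same-numbered libraries shared little across genes (correlation 0.0343). With 2 libraries per group this value cannot tell whether the numbers in the labels pair the libraries. Under the block ELOVL6 gained a call (edgeR adjusted p = 0.0469). The lowest count of the 32 genes in any library was 94.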
